A study of Mus musculus with 24 samples.

Results

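A set of 9 genes known as surface, secreted or tissue markers of liver tumours, Gpc3, Ly6d, Golm1, Sox4, Tff3, Prom1, Cd44, Spink1 and Fam83a, were followed in mouse liver RNA on 24 single-colour arrays. They were chosen by name, as the non-control probes that carry the symbol of a member or whose accession now has that symbol, and all 9 members are among the 19290 genes tested, through 13 probes. The array lists Spink1 under its older mouse name Spink3. The arrays fall into 6 groups of 4: treated male dKO, treated male WT, treated female dKO, treated female WT, untreated female dKO and untreated female WT. In the dKO mice both Foxa1 and Foxa2 were knocked out, and the labels name neither the promoter or Cre behind the knockout nor the deleted exons. Treated mice received diethylnitrosamine (DEN, 20 mg/kg), a liver carcinogen, at 14 to 15 days of age and then 8 injections of TCPOBOP (3 mg/kg), an agonist of the nuclear receptor CAR that promotes liver tumours, at intervals of 2 weeks. The labels call all samples liver tumor, the untreated ones included, and hold no untreated males, so that treatment was compared in females and sex in treated mice. No source used here gives the ages at collection. The question was which of these markers follow the treatment and which follow the loss of Foxa1 and Foxa2 without it.

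Foxa1 and Foxa2 are forkhead transcription factors that open chromatin at liver genes and keep hepatocytes and bile ducts in their proper state. The markers have different roles. Ly6d and Gpc3 sit on the outer cell membrane by a lipid anchor, Ly6d as a small Ly6-family protein best known from lymphocyte precursors and squamous epithelium, and Gpc3 as a heparan sulfate proteoglycan of fetal liver that serves as a tissue marker of human hepatocellular carcinoma. Cd44, a receptor for hyaluronan, and Prom1 (CD133), a protein of membrane protrusions, span the membrane and are used to mark progenitor and tumour-initiating cells. Golm1 (GP73) is a Golgi membrane protein that is cleaved and shed into serum, Tff3 is a secreted trefoil peptide of mucous epithelia, and Spink1 is a secreted trypsin inhibitor made by the pancreas and by some liver tumours. Sox4, a transcription factor of progenitor cells, and Fam83a, a scaffold protein linked to growth factor and kinase signalling, act inside the cell, so the set is not made of surface and secreted proteins alone.

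The sequences of 5 probes are shown because they carry the contrasts described here: Sox4, which was called between dKO and WT in all 3 genotype comparisons, both probes of Fam83a, which gave the same calls, and 1 probe each of Prom1 and Cd44 that was dimmer than another probe of its gene. All are 60 bases, given 5′ to 3′ as deposited with their mm9 positions; no part of them is marked in capitals. The Sox4 probe lies at chr13:29044066-29044125 on the minus strand. The Fam83a probes lie at chr15:57841138-57841197 (A_52_P353905) and chr15:57818017-57818076 (A_52_P243522) on the plus strand. The Prom1 probe A_52_P402786 lies at chr5:44397410-44397469 and the Cd44 probe A_51_P407053 at chr2:102674420-102674479, both on the minus strand.
Sox4 A_51_P105178: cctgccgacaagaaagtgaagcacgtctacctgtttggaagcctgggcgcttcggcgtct
Fam83a A_52_P353905: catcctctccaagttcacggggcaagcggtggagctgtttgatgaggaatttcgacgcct
Fam83a A_52_P243522: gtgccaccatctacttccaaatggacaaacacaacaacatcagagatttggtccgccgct
Prom1 A_52_P402786: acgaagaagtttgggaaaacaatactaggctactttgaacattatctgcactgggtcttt
Cd44 A_51_P407053: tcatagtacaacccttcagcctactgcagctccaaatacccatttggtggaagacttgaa

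Levels are log2 of the processed signal over the 75th percentile of its array, so that 0 is the signal below which 75% of spots lie, and a difference of 1 is a doubling of signal. A probe is above background on an array where the scanner software marked it as well above background. Between 50.4% and 68.4% of probes were so marked per array, and the number of arrays limits the precision. Foxa1 was not well above background on any of the 12 dKO arrays (-8.29 to -5.93), against -3.36 to -2.11 on the 12 WT arrays, and Foxa2 lay between -7.12 and -1.93 on dKO arrays, against 3.55 to 4.92 on WT arrays. These ranges do not overlap. Foxa2 was well above background on 3 of 4 untreated female dKO arrays and on 2 of 4 in each treated dKO group. The part of each gene that its probe covers relative to the deletion is not given. All 10 measured hepatocyte markers were above background on all arrays. Since no label says that the replicates came from separate animals, each p-value reflects the spread among these arrays alone, which may be technical. The treated female dKO arrays stood apart: on replicate 2 the 10 hepatocyte markers summed to 952 times the 75th percentile, against 1401 to 1987 on the other 3, and the spike-in slope was 0.923, against 0.946 to 0.985. Replicate 2 was the highest of its group for 6 of the 9 members and replicate 3 the lowest for 6 of 9, and the values of the members and named genes that were called in this group are also given without replicate 2. Arrays were also not spread evenly over slide positions, since treated dKO arrays sat at positions 3 and 4 and treated WT arrays at positions 1 and 2, so that genotype in treated mice and array position cannot be told apart. Untreated arrays of both genotypes shared positions 2 and 3, but unevenly. WT replicates 1, 2 and 3 and dKO replicate 1 sat at position 2, and WT replicate 4 and dKO replicates 2, 3 and 4 at position 3. Genotype in untreated females and treatment in WT females were thus tied to position in part. All treated female dKO arrays sat at position 4 and the untreated female dKO arrays at positions 2 and 3. Treatment in dKO females and array position thus cannot be told apart either. Each of the 6 slides held arrays of 4 groups, and differences within the slides that held both groups are given as a range. The extraction protocol in the labels speaks of liver samples and also of sorted cells, and which of them an array holds is not stated, so that a level may stand for whole liver or for a sorted part of it. In bulk RNA, fewer cells of a type and less RNA per cell cannot be told apart.

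The markers differed in what they followed, and some followed both Foxa loss and treatment. Sox4 and Spink1 were higher after Foxa loss without any treatment, by 10.2-fold and 73.5-fold, and Cd44 by 3.04-fold. Sox4 and Cd44 were also called higher after treatment in both genotypes of females, and Spink1 was called for treatment in neither. Ly6d, Fam83a and Tff3 were called higher after treatment in both genotypes of females and were not called between the genotypes without it. Golm1 was called higher in treated dKO females against both treated WT and untreated dKO females, Prom1 rose with treatment in WT females and fell with Foxa loss in treated males, and Gpc3 was called in none of the 9 comparisons. All calls are at an adjusted p under 0.05 from limma, over 19290 genes.

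**Figure D1:**
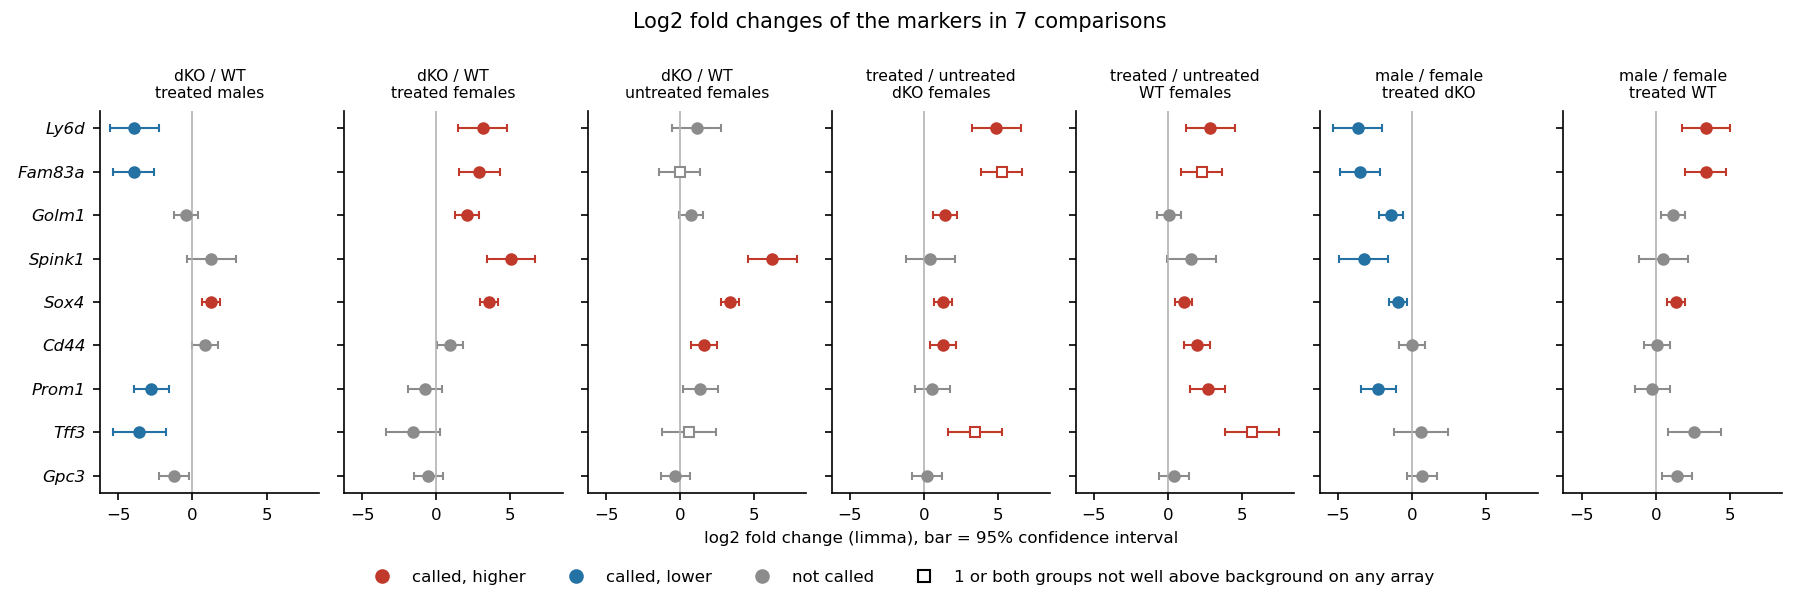
Log2 fold changes of the 9 markers (rows) in 7 comparisons (panels), with the tested group named before the slash in each panel title; points are limma estimates, bars 95% confidence intervals, red higher, blue lower and grey not called at an adjusted p under 0.05. Open squares mark comparisons in which 1 or both groups were not well above background on any array. Ly6d and Fam83a lie at -3.92 and -3.97 in treated males and at 3.12 and 2.91 in treated females, while Sox4 lies above 0 in all 3 genotype panels.

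Foxa loss gave 1 member higher and 4 lower of 9 in treated males, where 25.3% of all genes were called, 14.5% higher and 10.8% lower. It gave 5 higher and 0 lower in treated females, where 29.7% of all genes were called (13.5% and 16.3%), and 3 higher and 0 lower in untreated females, where 9.75% were (5.16% and 4.59%). At an unadjusted p under 0.05, treated males had 1 member higher and 5 lower, treated females 6 higher and 0 lower, and untreated females 4 higher and 0 lower. The 5 of 9 in treated females and the 3 of 9 in untreated females thus lie above the share of all genes that was higher there. Treatment gave 6 members higher and 0 lower in dKO females, where 37.8% of all genes were called (16.3% and 21.5%), and 6 higher and 0 lower in WT females, where 17.2% were (8.47% and 8.71%), and the counts at an unadjusted p under 0.05 were also 6 and 0 in both. Males were higher for 0 members and lower for 6 in treated dKO, where 20.5% of all genes were called (12.4% and 8.05%), and higher for 3 and lower for 0 in treated WT, where 6.11% were (3.27% and 2.85%). At an unadjusted p under 0.05 these were 0 and 6 in dKO, against 6 and 0 in WT. The genotype by treatment interaction in females called 0 of 9 members in limma, against 5.08% of all genes (2.47% higher and 2.61% lower), and 2 were higher and 1 lower at an unadjusted p under 0.05. Over the alternative runs this interaction was called for Fam83a in 4 of 35 (values of 1.41 to 3.58). It was called for Prom1 in 2 of 36 (-3.17 to -1.44), for Golm1 in 1 of 36 (0.94 to 1.82) and for no other member. The sex by genotype interaction in treated mice called 0 higher and 5 lower, against 12.6% of all genes (7.32% and 5.25%). When treated female dKO replicate 2 was left out, the members called were 5 higher for Foxa loss in treated females, 5 higher for treatment in dKO females, 4 lower for sex in dKO and 4 lower for the sex by genotype interaction, with 0 the other way in each. The split of all genes depended on the scaling: with median centring, Foxa loss in treated males gave 1789 higher and 3001 lower genes, against 2790 and 2082 here. With the same centring, treatment in WT females gave 1272 higher and 2099 lower (against 1634 and 1681), sex in dKO 1531 and 1533 (against 2398 and 1552), and the sex by genotype interaction 711 and 1006 (against 1412 and 1012). With normexp background, Foxa loss in treated females gave 1748 higher and 5334 lower, against 2600 and 3136. The median log2 fold change over the 9 members for Foxa loss was -1.23 in treated males, 2.08 in treated females and 1.1 in untreated females, with medians over all genes of 0.05, -0.07 and -0.04. For treatment it was 1.26 in dKO females and 1.94 in WT females, with medians over all genes of -0.07 and -0.06. Several of these comparisons share arrays. The members were picked as tumour markers, and they and the lists below were chosen with earlier results of these data known. A count above the share of all genes may thus be built into the choice, and the counts describe this list and no other.

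**Figure D2:**
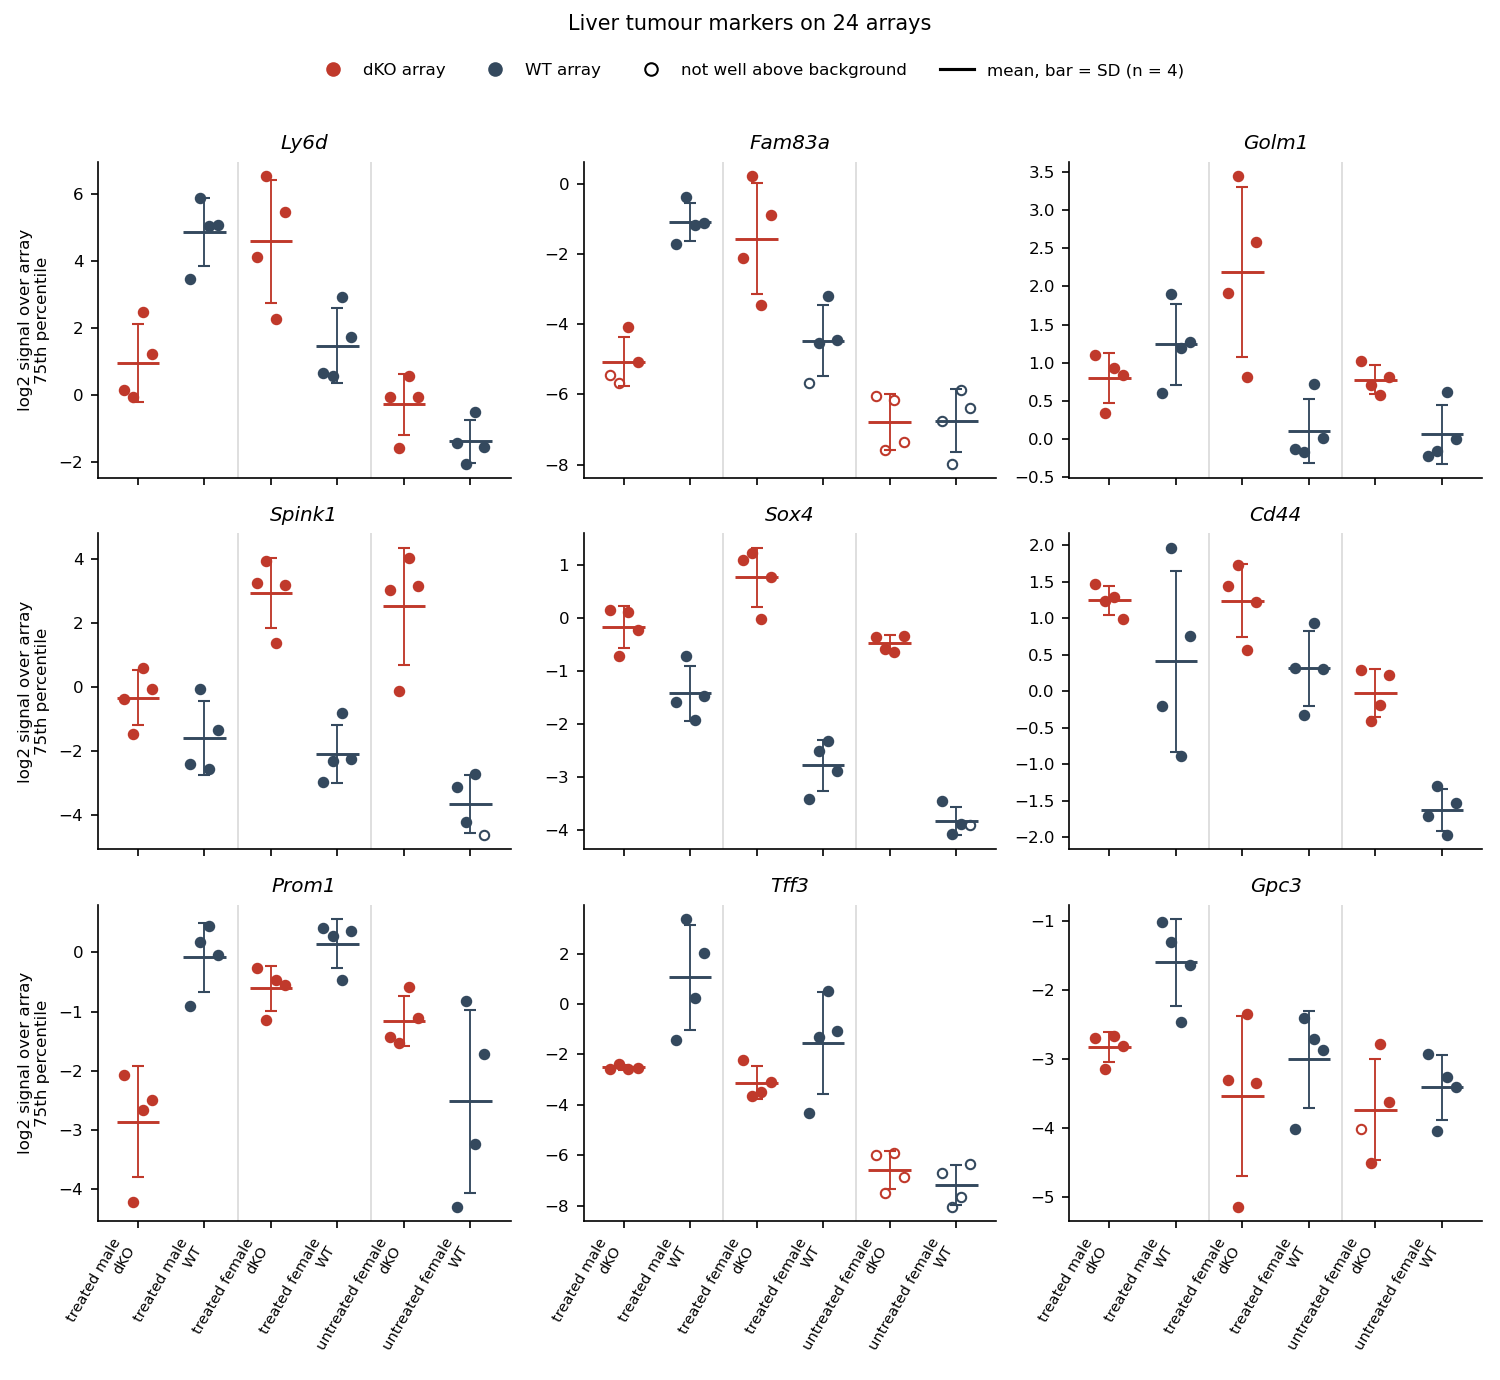
Log2 signal over the array's 75th percentile (vertical axes, scaled per gene) of each marker on each of the 24 arrays, by group along the horizontal axes; points are arrays, open where the probe was not well above background, with the mean and SD of 4 arrays. Ly6d and Fam83a were highest in treated male WT and treated female dKO livers, while Sox4 was higher on dKO than on WT arrays in both female settings.

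Ly6d (probe at chr15:74592551-74592610, mm9, minus strand) was low in untreated livers and high in 2 of the 4 treated groups. Its 4 values were 0.15, -0.08, 2.47 and 1.21 in treated male dKO livers, against 3.45, 5.86, 5.03 and 5.07 in treated male WT livers. In females they were 4.10, 6.52, 2.25 and 5.44 in treated dKO, against 0.65, 0.56, 2.93 and 1.71 in treated WT. Untreated, they were -0.07, -1.59, 0.56 and -0.07 in dKO, against -1.44, -2.06, -0.52 and -1.55 in WT. The male genotypes did not overlap, the treated female genotypes overlapped through dKO replicate 3 and WT replicate 3, and every treated female array lay above every untreated array of its genotype. Foxa loss lowered Ly6d 15.1-fold in treated males (log2 fold change -3.92 ± 0.79 SE, adjusted p = 0.001) and raised it 8.68-fold in treated females (3.12 ± 0.79, adjusted p = 0.0062). The 2 effects differed by -7.04 ± 1.12 (male minus female effect, adjusted p = 0.0011). Without treatment the genotypes differed by 1.1 (95% interval -0.55 to 2.75, adjusted p = 0.42), which does not show that they were alike. Treatment raised Ly6d 29.3-fold in dKO females (4.87 ± 0.79, adjusted p = 0.00017) and 7.24-fold in WT females (2.86 ± 0.79, adjusted p = 0.018). Males were lower than females in treated dKO (-3.65 ± 0.79, adjusted p = 0.0036) and higher in treated WT (3.39 ± 0.79, adjusted p = 0.013). Without treated female dKO replicate 2 the values were 2.47 for genotype in treated females, 4.23 for treatment in dKO, -3.00 for sex in dKO, and -6.39 for the difference between the sexes' genotype effects, all still called. With only the groups compared in the fit, the call for genotype in treated females was lost (3.12, adjusted p = 0.073), as was that for sex in dKO (-3.65, adjusted p = 0.063). The WT treatment call was lost without treated female WT replicate 3 (2.37, adjusted p = 0.074) and with slide as a fixed block (2.61, adjusted p = 0.066), and the within-slide differences ran from -5.95 to -2.60 for genotype in males and from 3.59 to 4.79 in treated females. The treated female range sets dKO replicate 2 against WT replicate 3 and dKO replicate 4 against WT replicate 1. It leaves out dKO replicate 3, the lowest of its group at 2.25.

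Gpc3 was low on these arrays and passed no test. Values were -2.69, -3.14, -2.67 and -2.81 in treated male dKO livers, against -1.0, -1.30, -2.46 and -1.63 in treated male WT livers. Treated females had -3.30, -5.14, -2.35 and -3.35 in dKO, against -4.02, -2.41, -2.71 and -2.87 in WT. Untreated females had -4.02 (not well above background), -4.51, -2.78 and -3.63 in dKO, against -2.93, -4.05, -3.27 and -3.41 in WT. The male genotypes did not overlap and all other pairs of groups compared did. The difference between treated male genotypes was -1.23 ± 0.48 (dKO minus WT, adjusted p = 0.067) and passed the threshold under several alternatives, among them median centring (-1.37, adjusted p = 0.038) and the fit without treated female dKO replicate 2 (adjusted p = 0.023). Treatment changed Gpc3 by 0.20 in dKO females (95% interval -0.81 to 1.21) and by 0.41 in WT females (-0.60 to 1.42). Within-slide differences between the male genotypes ran from -1.85 to -0.24.

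Cd44 was raised by Foxa loss in untreated females and by treatment in both genotypes. Its representative probe (A_52_P229536, chr2:102652907-102652966) read 1.47, 1.24, 1.29 and 0.99 in treated male dKO livers, against -0.21, 1.97, -0.89 and 0.76 in treated male WT livers. Treated females had 1.44, 1.73, 0.56 and 1.22 in dKO, against 0.32, -0.33, 0.94 and 0.31 in WT. Untreated females had 0.29, -0.41, -0.19 and 0.22 in dKO, against -1.71, -1.31, -1.97 and -1.53 in WT. The untreated genotypes and the treated and untreated arrays of each genotype did not overlap, and treated male WT livers spread over the whole range of the other treated groups. Foxa loss without treatment raised Cd44 3.04-fold (1.61 ± 0.42, adjusted p = 0.018), and treatment raised it 2.40-fold in dKO females (1.26 ± 0.42, adjusted p = 0.022) and 3.84-fold in WT females (1.94 ± 0.42, adjusted p = 0.0037). Differences between genotypes were 0.84 in treated males (95% interval -0.03 to 1.71, adjusted p = 0.15) and 0.93 in treated females (0.06 to 1.80, adjusted p = 0.10), and neither passed. Sex differences were 0.01 in dKO and 0.10 in WT, with intervals of -0.86 to 0.88 and -0.77 to 0.97. The untreated genotype call was lost without WT replicate 3 or dKO replicate 1 or 4 (1.49 to 1.53, adjusted p = 0.050 to 0.056) with normexp background (1.25, adjusted p = 0.063) and with slide as a fixed block (1.32, adjusted p = 0.075). The 2 slides that held both groups gave differences of 1.30 and 1.78. Without treated male WT replicate 2, the genotype differences passed in treated males (1.36, adjusted p = 0.0062) and treated females (0.93, adjusted p = 0.031), while the treatment call in dKO females was lost without treated replicate 2 (1.1, adjusted p = 0.074) or untreated replicate 2 (1.14, adjusted p = 0.063).

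The 3 Cd44 probes disagreed. Probe A_52_P523459 (chr2:102651667-102651726, 10 spots averaged) was called wherever the representative probe was and also for genotype in treated females (1.05 ± 0.39, adjusted p = 0.048) and treated males (1.07 ± 0.39, adjusted p = 0.048), both just inside the threshold. Probe A_51_P407053, whose sequence is given above, is listed for 2 RefSeq transcripts, against 3 for each of the other probes. It was well above background on 4 of 24 arrays, 3 of them treated female dKO and 1 treated male WT, and none of its differences was called. The mean of the 3 probes did not pass for genotype in untreated females (0.87, adjusted p = 0.076). Which Cd44 transcripts each probe reports was not tested.

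**Figure D3:**
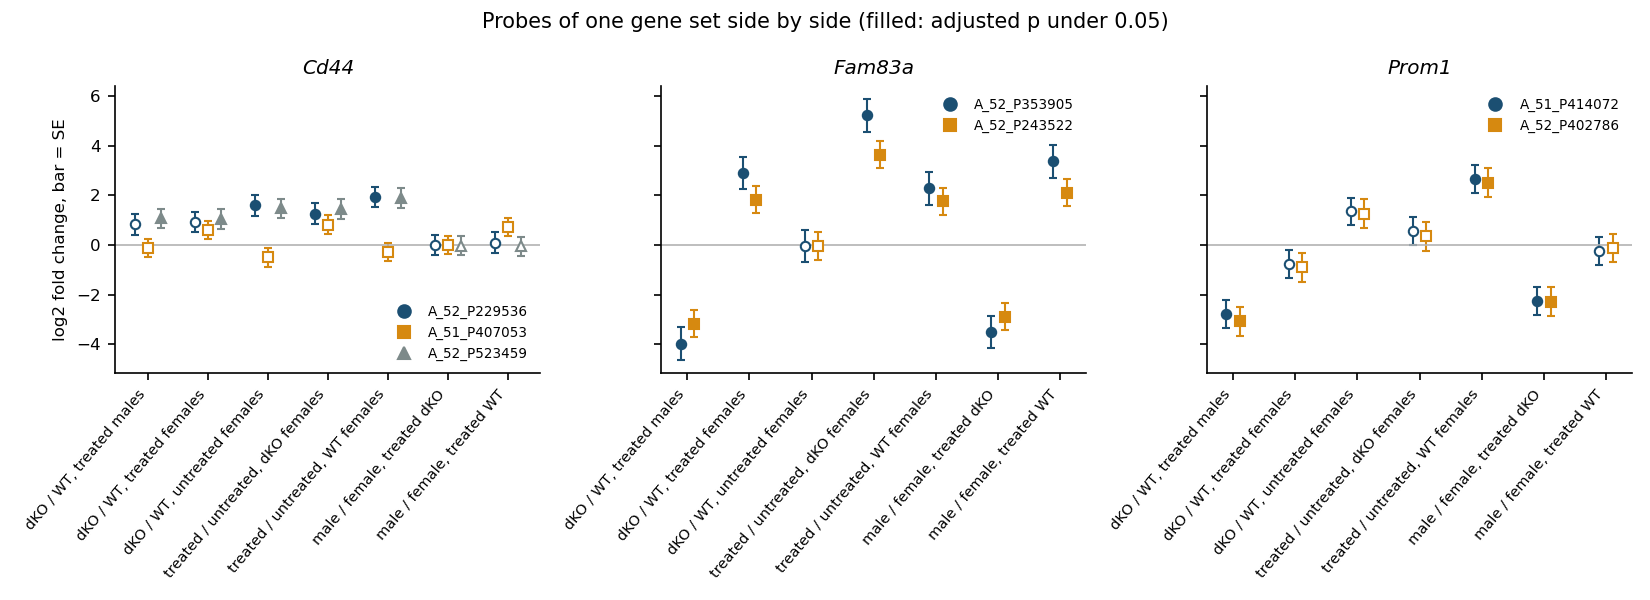
Log2 fold changes (vertical axis, bars are SE) of each probe of Cd44, Fam83a and Prom1 in 7 comparisons (horizontal axis), with the representative probe first and filled symbols for an adjusted p under 0.05. The 2 probes of Fam83a and of Prom1 gave the same calls, whereas for Cd44 probe A_51_P407053 lay between -0.50 and 0.82 with no call.

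Prom1 rose with treatment in WT females and stood low in treated male dKO livers. Probe A_51_P414072 (chr5:44385331-44385390) read -2.07, -4.23, -2.67 and -2.49 in treated male dKO livers, against -0.90, 0.17, 0.45 and -0.05 in treated male WT livers. Treated females had -0.27, -1.14, -0.47 and -0.55 in dKO, against 0.42, 0.27, -0.47 and 0.37 in WT. Untreated females had -1.43, -1.53, -0.58 and -1.11 in dKO, against -4.30, -0.83, -3.23 and -1.71 in WT. The male genotypes did not overlap, the female genotypes did in both settings, and untreated WT livers were the most spread. Foxa loss lowered Prom1 6.89-fold in treated males (-2.78 ± 0.56, adjusted p = 0.00098). In females the genotype difference was -0.75 with treatment (95% interval -1.92 to 0.41, adjusted p = 0.34) and 1.36 without it (0.19 to 2.52, adjusted p = 0.13). Treatment raised Prom1 6.34-fold in WT females (2.66 ± 0.56, adjusted p = 0.0031), and in dKO females the difference was 0.55 (-0.61 to 1.72, adjusted p = 0.46). The test of that difference between genotypes did not pass (-2.11 ± 0.79, adjusted p = 0.13), though it did in 2 of 36 alternative runs. Males were lower than females in treated dKO (-2.26 ± 0.56, adjusted p = 0.0083, and -2.44 without treated female dKO replicate 2, adjusted p = 0.013), and in treated WT the difference was -0.23 (-1.4 to 0.94). Within slides, the male genotypes differed by -4.40 to -2.52, and the untreated female genotype difference passed with slide as a fixed block (1.92, adjusted p = 0.038).

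Golm1 was highest in treated female dKO livers. Its values (probe at chr13:59736466-59736525, minus strand) were 1.1, 0.34, 0.93 and 0.83 in treated male dKO livers, against 0.60, 1.89, 1.19 and 1.28 in treated male WT livers. Treated females had 1.91, 3.44, 0.81 and 2.58 in dKO, against -0.13, -0.17, 0.73 and 0.02 in WT. Untreated females had 1.02, 0.71, 0.58 and 0.81 in dKO, against -0.22, -0.15, 0.62 and 0.01 in WT. The treated female genotypes did not overlap, although dKO replicate 3 lay only just above WT replicate 3, and the untreated genotypes overlapped through WT replicate 3. Treated and untreated dKO females overlapped through treated replicate 3. Foxa loss raised Golm1 4.21-fold in treated females (2.08 ± 0.39, adjusted p = 0.00064), and treatment raised it 2.65-fold in dKO females (1.4 ± 0.39, adjusted p = 0.0081). The genotype difference was 0.72 in untreated females (95% interval -0.10 to 1.53, adjusted p = 0.27) and -0.44 in treated males (-1.25 to 0.37, adjusted p = 0.46), and treatment changed it by 0.04 in WT females (-0.77 to 0.86). Its genotype effect in treated males lay below that in treated females by 2.51 on the log2 scale (-2.51 ± 0.55, adjusted p = 0.0069), whereas the genotype by treatment interaction did not pass (1.36 ± 0.55, adjusted p = 0.16). That interaction passed in 1 of 36 alternative runs. Males were lower than females in treated dKO (-1.38 ± 0.39, adjusted p = 0.017), and this was lost without treated female dKO replicate 2 (-0.96, adjusted p = 0.077) or 4 (-1.25, adjusted p = 0.060) or treated male dKO replicate 2 (-1.23, adjusted p = 0.058), with slide as a fixed block (-1.31, adjusted p = 0.058) and with only the groups compared in the fit (adjusted p = 0.13). The last setting also lost the treatment call in dKO (adjusted p = 0.077). Without treated female dKO replicate 2, the genotype difference in treated females was 1.66, the treatment difference in dKO 0.99 and the difference between the sexes' genotype effects -2.09, all still called.

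Tff3 was found above background in treated livers alone. All 16 treated arrays were above it, at -2.58, -2.38, -2.58 and -2.53 in treated male dKO livers, against -1.41, 3.37, 0.25 and 2.04 in treated male WT livers. Treated females had -2.22, -3.66, -3.50 and -3.10 in dKO, against -4.33, -1.29, 0.50 and -1.09 in WT. All 8 untreated female arrays were not well above background, at -6.00, -7.51, -5.93 and -6.86 in dKO, against -6.69, -8.04, -7.68 and -6.34 in WT. The dKO arrays of both sexes were close together, while the WT arrays of each sex spread over more than 4 log2 units. Since a dim probe gives only a bound, treatment raised Tff3 at least 3.61-fold in dKO females (adjusted p = 0.0045) and at least 11.3-fold in WT females (adjusted p = 0.00025), the bound being the treated mean against the lowest signal among probes above background. Foxa loss lowered Tff3 11.9-fold in treated males (-3.58 ± 0.87, adjusted p = 0.0047), with no overlap and within-slide differences of -5.75 to -2.83. In treated females the difference was -1.57 (95% interval -3.39 to 0.25, adjusted p = 0.19), and it passed without treated WT replicate 1 (-2.50, adjusted p = 0.029). The sex difference was 0.60 in dKO (-1.21 to 2.42) and 2.61 in WT (0.79 to 4.43, adjusted p = 0.083). The dKO treatment call was kept without treated replicate 2 (adjusted p = 0.0086) and lost with normexp background (0.87, adjusted p = 0.35).

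Spink1, the secreted trypsin inhibitor, had the largest measured fold change among the members. Its values were -0.39, -1.46, 0.60 and -0.07 in treated male dKO livers, against -2.39, -0.05, -2.56 and -1.35 in treated male WT livers. Treated females had 3.24, 3.93, 1.38 and 3.19 in dKO, against -2.97, -2.32, -0.83 and -2.25 in WT. Untreated females had 3.04, -0.13, 4.04 and 3.16 in dKO, against -3.12, -4.23, -2.71 and -4.63 (not well above background) in WT. In females no dKO array overlapped a WT array in either setting, in spite of a low untreated dKO replicate 2, and in males 2 WT arrays, replicates 2 and 4, lay within the dKO range. Foxa loss raised Spink1 73.5-fold in untreated females (6.20 ± 0.79, adjusted p = 3.3e-05) and 32.7-fold in treated females (5.03 ± 0.79, adjusted p = 0.00013). In treated males the difference was 1.26 (95% interval -0.39 to 2.90, adjusted p = 0.27). Treatment changed it by 0.41 in dKO females (-1.24 to 2.05) and by 1.58 in WT females (-0.07 to 3.22, adjusted p = 0.18), so that this gene followed Foxa loss and no call followed treatment. Treated dKO males were lower than treated dKO females by 9.62-fold (-3.27 ± 0.79, adjusted p = 0.0072), and in WT the sex difference was 0.51 (-1.14 to 2.15). The genotype effect in males was below that in females (-3.77 ± 1.12, adjusted p = 0.032), and this call was lost when any of 9 single arrays was left out, with adjusted p of 0.052 to 0.071, among them treated female dKO replicate 2 (-3.44, adjusted p = 0.070) and treated male WT replicate 2 (-3.26, adjusted p = 0.071). It was also lost with slide as a fixed block (-3.77, adjusted p = 0.059) and with no filter on dim probes (adjusted p = 0.053). Without treated female dKO replicate 2, the genotype difference in treated females was 4.70 and the sex difference in dKO -2.93, both still called.

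Sox4 followed Foxa loss in all 3 settings and treatment to a lesser extent. Its values were 0.15, -0.71, 0.12 and -0.23 in treated male dKO livers, against -1.58, -0.71, -1.93 and -1.46 in treated male WT livers. Treated females had 1.1, 1.22, -0.02 and 0.78 in dKO, against -3.41, -2.51, -2.33 and -2.88 in WT. Untreated females had -0.35, -0.58, -0.65 and -0.34 in dKO, against -3.46, -4.08, -3.89 and -3.91 (not well above background) in WT. The genotypes lay far apart in females, with or without treatment, and touched in males at dKO replicate 2 and WT replicate 2. Foxa loss raised Sox4 10.2-fold in untreated females (3.35 ± 0.29, adjusted p = 2.1e-07), 11.7-fold in treated females (3.55 ± 0.29, adjusted p = 8.5e-08) and 2.38-fold in treated males (1.25 ± 0.29, adjusted p = 0.003). The genotype effect in males was below that in treated females (-2.30 ± 0.41, adjusted p = 0.0017), and the effects in treated and untreated females differed by 0.20 ± 0.41 (adjusted p = 0.83). Treatment raised Sox4 2.37-fold in dKO females (1.25 ± 0.29, adjusted p = 0.0024) and 2.07-fold in WT females (1.05 ± 0.29, adjusted p = 0.017). Males were lower than females in treated dKO (-0.94 ± 0.29, adjusted p = 0.026) and higher in treated WT (1.36 ± 0.29, adjusted p = 0.0067). The WT treatment call was lost without treated WT replicate 3 (0.90, adjusted p = 0.067), with normexp background (0.63, adjusted p = 0.16) and with slide as a fixed block (0.93, adjusted p = 0.060). The dKO treatment call was kept in 34 of 35 alternative runs, with a highest adjusted p of 0.076. The dKO sex call was lost without any of 5 arrays, among them treated female dKO replicate 2 (-0.79, adjusted p = 0.099), with slide as a fixed block (-0.86, adjusted p = 0.084), and with only the groups compared (adjusted p = 0.11). The WT sex call was lost with normexp background (0.64, adjusted p = 0.29) and with only the groups compared (adjusted p = 0.053). The female genotype differences were 2.88 to 3.24 within slides untreated and 3.55 to 4.19 treated, the treated range resting on dKO replicates 2 and 4 alone. Without treated female dKO replicate 2 the calls were kept for genotype in treated females (3.40), treatment in dKO (1.1) and the difference between the sexes' genotype effects (-2.15).

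Fam83a, read by the 2 probes shown, was at or near background without treatment. Probe A_52_P243522 was well above background on 1 of 4 untreated female WT arrays and on 0 of 4 untreated female dKO arrays. Probe A_52_P353905 gave -5.45, -5.66, -4.07 and -5.07 in treated male dKO livers, the first 2 not well above background, against -1.71, -0.38, -1.18 and -1.1 in treated male WT livers. Treated females had -2.12, 0.22, -3.45 and -0.88 in dKO, against -5.68 (not well above background), -4.55, -3.21 and -4.44 in WT. For this probe all 8 untreated arrays were not well above background, between -7.58 and -6.06 in dKO and between -7.97 and -5.88 in WT. As for Ly6d, the male genotypes did not overlap, and the treated female genotypes met at dKO replicate 3 and WT replicate 3. With 2 of the 4 dKO arrays above background, Foxa loss lowered Fam83a 15.7-fold in treated males (-3.97 ± 0.66, adjusted p = 0.00016), a size that rests in part on dim arrays, and raised it 7.51-fold in treated females (2.91 ± 0.66, adjusted p = 0.0029), and these effects differed (-6.88 ± 0.93, adjusted p = 0.0007). Treatment raised it at least 10.6-fold in dKO females (adjusted p = 1.7e-05) and at least 1.49-fold in WT females (adjusted p = 0.022). Males were lower than females in treated dKO (-3.50 ± 0.66, adjusted p = 0.0013) and higher in treated WT (3.38 ± 0.66, adjusted p = 0.004). The WT treatment call was lost without treated WT replicate 3 (1.86, adjusted p = 0.090) or untreated WT replicate 2 (1.87, adjusted p = 0.077), with slide as a fixed block (2.0, adjusted p = 0.076) and with normexp background (0.74, adjusted p = 0.29). Without treated female dKO replicate 2 the values were 2.32 for genotype in treated females, 4.63 for treatment in dKO, -2.91 for sex in dKO and -6.29 for the difference between the sexes' genotype effects, all still called. With only the groups compared in the fit, the call for genotype in treated females was lost (2.91, adjusted p = 0.062). The second probe gave -3.16 ± 0.55 for genotype in treated males and 1.83 ± 0.55 in treated females, both called.

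The order of the groups differed between markers. Ly6d averaged 4.85 ± 1.01 in treated male WT and 4.58 ± 1.84 in treated female dKO livers, 1.46 ± 1.11 in treated female WT and 0.93 ± 1.17 in treated male dKO livers, and -0.29 ± 0.92 and -1.39 ± 0.64 in untreated dKO and WT livers (SD, n = 4 each), and within each of these 3 pairs the arrays overlapped. Fam83a was also highest in treated male WT (-1.09 ± 0.55) and treated female dKO livers (-1.56 ± 1.58). Treated female WT (-4.47 ± 1.01, 3 of 4 arrays above background) and treated male dKO livers (-5.06 ± 0.71, 2 of 4) overlapped and are not ordered here. Sox4 had the 3 dKO groups on top, at 0.77 ± 0.56 in treated females, -0.17 ± 0.40 in treated males and -0.48 ± 0.16 in untreated females, and then -1.42 ± 0.51 in treated male WT, -2.78 ± 0.48 in treated female WT and -3.83 ± 0.27 in untreated female WT livers. Neighbours in this order overlapped among the 3 dKO groups, and each later step was without overlap. Spink1 ran from 2.94 ± 1.09 in treated female dKO and 2.53 ± 1.83 in untreated female dKO to -3.67 ± 0.91 in untreated female WT livers, and treated male dKO came next at -0.33 ± 0.86.

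By likeness over the 24 arrays, described by Pearson's r among 17239 genes above background on at least 12 arrays, with no test since the arrays share groups and slides, Ly6d and Fam83a were each other's nearest gene (r = 0.977). The next genes for Fam83a were Foxm1 (0.960), a transcription factor of the cell cycle, and Hmmr (0.954), a spindle protein, and the next for Ly6d was Serpinb6a (0.960). Golm1 was nearest to Incenp (0.933), a subunit of the chromosomal passenger complex, Fen1 (0.932), a nuclease of DNA replication, and Ano10 (0.922). Cd44 was nearest to Bcl2a1c (0.954), Bcl2a1b (0.952) and Sla (0.947), and among the genes most like Sox4 were Specc1 (0.955) and Fbln2 (0.950), of which Fbln2 is a matrix protein. Spink1 was nearest to Tinag (0.942), Myo7b (0.923) and Tmc6 (0.923), and Tff3 to Fzd10 (0.924), a Wnt receptor, Rras (0.917) and Atg16l2 (0.915). The nearest genes of Prom1 (Dcaf4, 0.840) and Gpc3 (4933438K21Rik, 0.847, then the imprinted RNA Meg3, 0.826) were less alike. Between members, Sox4 and Spink1 had r = 0.863, and Sox4 and Prom1 had r = 0.03.

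Other liver tumour genes gave a wider view of the same groups. Of 20 genes of an oncofetal list 17 were measured, and Foxa loss raised 11 and lowered 0 in treated females, against 3 raised and 2 lowered in treated males and 4 raised and 0 lowered in untreated females, with medians of 1.63, 0.28 and 0.87 over the list. Of all genes, 13.5% were higher and 16.3% lower in treated females, 14.5% and 10.8% in treated males, and 5.16% and 4.59% in untreated females. Treatment raised 12 and lowered 1 in dKO females and raised 6 and lowered 1 in WT females, with medians of 1.95 and 1.25. Of all genes, treatment raised 16.3% and lowered 21.5% in dKO females, and raised 8.47% and lowered 8.71% in WT females. Igf2, a fetal growth factor, rose with Foxa loss in treated females (4.42 ± 0.70, adjusted p = 0.00014) and with treatment in dKO females (6.05 ± 0.70, adjusted p = 8.3e-06), as did H19, its neighbouring imprinted RNA (3.76 ± 0.85, adjusted p = 0.0028, and 6.46 ± 0.85, adjusted p = 2.8e-05). Afp, the fetal serum albumin homologue used as a liver tumour marker, fell with Foxa loss in treated males (-4.12 ± 0.52, adjusted p = 8.8e-06), rose with treatment in dKO females (2.62 ± 0.52, adjusted p = 0.0008), and was not called for genotype in treated females (0.73 ± 0.52, adjusted p = 0.32). Scd2, a fatty acid desaturase, and Cd24a, a surface protein of progenitor cells, were raised by Foxa loss in untreated females, by 6.54 ± 0.35 (adjusted p = 2.8e-10) and 3.12 ± 0.42 (adjusted p = 5.5e-05). Both were also raised in treated females (4.78 and 3.69) and treated males (3.41 and 3.28). With treated female dKO replicate 2 left out, Foxa loss raised 9 of the 17 in treated females and treatment raised 11 in dKO females. Igf2 (4.95 and 6.58), H19 (4.40 and 7.10), Afp for treatment in dKO (1.99), and Scd2 (4.59) and Cd24a (3.29) for genotype in treated females were all still called there. For sex in treated dKO, 1 of the 17 was higher and 6 lower in males, against 12.4% and 8.05% of all genes. For the sex by genotype interaction 8 were below 0 and 0 above, against 5.25% and 7.32% of all genes. Afp was among the 8 (-4.84 ± 0.74, adjusted p = 0.00089). Without that replicate these counts were 0 and 3 for sex and 7 and 0 for the interaction, where Afp was still called (-4.21, adjusted p = 0.00044).

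Genes that work with Cd44 were set beside it, and more of them were called for Foxa loss in treated livers, as was so among all genes. Of 11 listed 8 were measured. Foxa loss raised 3 and lowered 1 in treated males (25.3% of all genes called), raised 3 and lowered 2 in treated females (29.7%) and raised 1 and lowered 0 in untreated females (9.75%). Spp1 (osteopontin), a secreted ligand of Cd44 that bile duct cells also make, rose with Foxa loss in treated males (1.68 ± 0.33, adjusted p = 0.00084) and treated females (3.39 ± 0.33, adjusted p = 8.5e-07), and with treatment in dKO females (3.82 ± 0.33, adjusted p = 3.4e-07). Ezr (ezrin), which ties Cd44 to actin, was raised by Foxa loss in treated males (1.89 ± 0.19), treated females (1.28 ± 0.19) and untreated females (1.28 ± 0.19), each with an adjusted p of 0.00015 or less. Slc7a11, the cystine transporter that Cd44 variants stabilise, was above background on the 4 treated female dKO and 4 treated male WT arrays and on none of the treated male dKO or treated female WT arrays. Foxa loss lowered it at least 2.54-fold in treated males (adjusted p = 0.042) and raised it at least 23.6-fold in treated females (adjusted p = 0.00032). Esrp2, a splicing factor of epithelial Cd44 exons, fell with Foxa loss in treated females (-1.0 ± 0.20, adjusted p = 0.00092). Still called with treated female dKO replicate 2 left out were Spp1 (3.09 for genotype in treated females and 3.52 for treatment in dKO), and, for genotype in treated females, Ezr (1.20), Slc7a11 (adjusted p = 0.0009) and Esrp2 (-0.77).

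Relatives of the members were listed beside them. Of 9 measured glypican and heparan sulfate genes, Foxa loss raised 2 and lowered 0 in treated males, raised 2 and lowered 2 in treated females and raised 0 and lowered 1 in untreated females, against 25.3%, 29.7% and 9.75% of all genes called in either direction, and Sulf1, a heparan sulfate sulfatase, rose in treated males (1.20 ± 0.37, adjusted p = 0.023) and treated females (1.41 ± 0.37, adjusted p = 0.0083). Gpc1 rose in treated females (0.81 ± 0.27, adjusted p = 0.027) and Gpc4 fell (-0.47 ± 0.15, adjusted p = 0.024). Sulf1 was still called there without treated female dKO replicate 2 (1.38), and Gpc1 (0.78, adjusted p = 0.067) and Gpc4 (-0.28, adjusted p = 0.10) were not. Of 11 Ly6 genes, Foxa loss raised 4 and lowered 0 in untreated females (5.16% of all genes higher), among them Ly6a (2.22 ± 0.28, adjusted p = 3.4e-05) and Ly6e (2.06 ± 0.23, adjusted p = 5.9e-06), where Ly6d was not called. In treated males 1 fell, Ly6c2 (-1.44 ± 0.28, adjusted p = 0.00074). Whether probes of closely alike Ly6 genes take up each other's RNA was not tested. Of 14 measured relatives of the other members, Sox11, the paralogue of Sox4, was raised by Foxa loss at least 1.57-fold in treated males (adjusted p = 0.023), at least 3.04-fold in treated females (adjusted p = 1.3e-05, still called without dKO replicate 2) and at least 1.19-fold in untreated females (adjusted p = 0.003). Prom2, the paralogue of Prom1, fell at least 13.8-fold with treatment in WT females (adjusted p = 2.7e-05), where Prom1 rose. Spink5, a relative of Spink1, fell with Foxa loss in untreated females (-2.29 ± 0.34, adjusted p = 0.00019), where Spink1 rose.

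Summed levels of marker lists moved with several members. The 12 cell cycle genes, in units of the array's 75th percentile, summed to 4.28 to 8.45 in treated male dKO livers, against 18 to 20.9 in treated male WT livers, to 6.51 to 40.9 in treated female dKO, against 3.60 to 6.24 in treated female WT, and to 3.09 to 4.19 and 2.65 to 4.22 in untreated dKO and WT. All 12 were above background on all arrays of treated male WT and treated female dKO, the groups in which Ly6d and Fam83a were highest. Foxa loss lowered 9 of the 12 in treated males (10.8% of all genes lower) and raised 11 in treated females (13.5% higher). In untreated females 0 passed, against 9.75% of all genes. The 13 bile duct and progenitor genes, among them keratin 19 and Epcam, summed to 75.2 to 98.0 in treated male dKO, against 11.3 to 23.8 in treated male WT livers, to 86.2 to 264 in treated female dKO, against 11.6 to 25.0 in treated female WT, and to 51.3 to 65.0 in untreated dKO, against 13.2 to 34.8 in untreated WT. These ranges were apart in the 3 genotype comparisons, in all of which Sox4 was called. In treated males, treated females and untreated females 11, 11 and 8 of the 13 were higher, against 14.5%, 13.5% and 5.16% of all genes. In the same order 0, 0 and 1 were lower, against 10.8%, 16.3% and 4.59%. For treatment in WT females, where Sox4 was also called, the ranges overlapped. The 10 hepatocyte genes summed to 1769 to 2295 in treated male dKO, against 1873 to 2078 in treated male WT livers, to 952 to 1987 in treated female dKO, against 1898 to 2429 in treated female WT, and to 1902 to 2081 in untreated dKO, against 1893 to 2570 in untreated WT. Of these 10, Foxa loss lowered 0 in treated males, 5 in treated females (median -1.18) and 1 in untreated females. Of all genes, 10.8%, 16.3% and 4.59% were lower there. Treatment lowered 6 of the 10 in dKO females (median -1.04), against 21.5% of all genes, and none of the 10 was raised in these comparisons. Without treated female dKO replicate 2, 5 were lower for Foxa loss in treated females (median -0.53) and 5 for treatment in dKO (median -0.54). The 9 macrophage genes, markers of a cell type that carries Cd44, summed to 131 to 186 in untreated female dKO, against 47.7 to 95.4 in untreated female WT livers, and to 155 to 363 and 152 to 274 in treated female dKO and WT. Foxa loss raised 2 and lowered 0 of these 9 in untreated females, against 5.16% and 4.59% of all genes, with a median of 1.03. The 10 stellate cell and fibroblast genes summed to 118 to 196 in treated female dKO, against 59.7 to 81.3 in treated female WT, and to 83.1 to 115 in untreated female dKO, against 62.7 to 73.8 in untreated female WT livers. Foxa loss raised 8 and 4 of these 10 in the 2 settings, against 13.5% and 5.16% of all genes. Exocrine pancreas genes, another source of Spink1, had 5 of 9 measured and summed to 7.18 to 8.05 in untreated female dKO, against 3.89 to 6.07 in untreated female WT, and to 2.69 to 6.11 in treated female dKO, against 3.81 to 6.96 in treated female WT livers. In untreated females 0 of these 5 were higher and 1 lower after Foxa loss (5.16% and 4.59% of all genes). Their median was -0.61, so that the sum and the median differ in sign. Intestinal goblet and enterocyte genes, another source of Tff3, had 5 of 9 measured and summed to 14.5 to 23.3 in treated female WT, against 34.4 to 90.6 in untreated female WT livers. Of these 5, 0 were higher and 1 lower with treatment in WT females (8.47% and 8.71% of all genes). Their median was 0.72, so that the sum and the median again differ in sign. Squamous genes, another source of Ly6d, had 5 of 9 measured and summed to 5.36 to 7.20 in treated male dKO, against 4.55 to 6.55 in treated male WT, and to 5.46 to 7.31 in treated female dKO, against 4.05 to 4.97 in treated female WT livers. The part of these lists in the members' values was not tested.

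**Figure D4:**
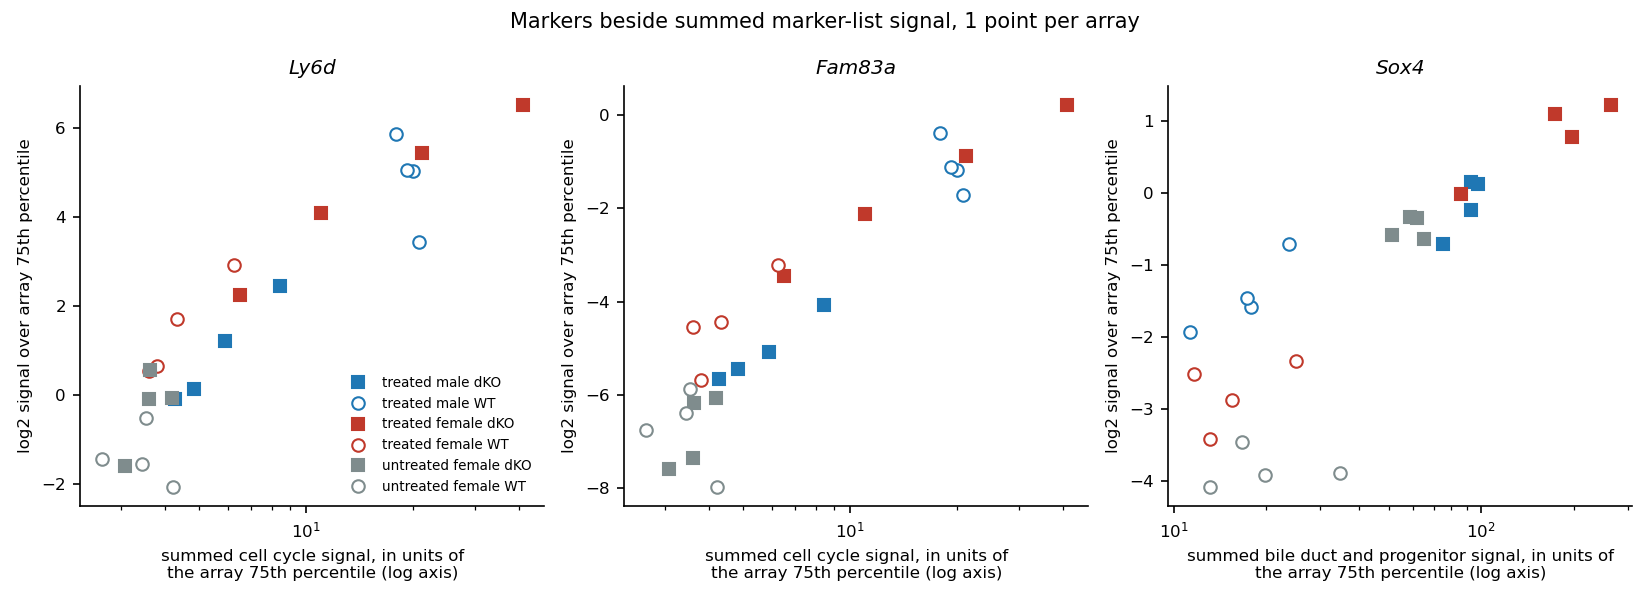
Log2 signal of Ly6d, Fam83a and Sox4 (vertical axes) against the summed signal of a marker list on the same array (horizontal log axis, in units of the array's 75th percentile), 1 point per array, dKO as filled squares and WT as open circles, coloured by sex and treatment. The cell cycle sums are 4.28 to 8.45 on treated male dKO, against 18 to 20.9 on treated male WT arrays, and 6.51 to 40.9 on treated female dKO, against 3.60 to 6.24 on treated female WT arrays, and Sox4 on dKO arrays stands beside bile duct sums of 51.3 or more.

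With array position as a covariate, 25 of the 39 member calls were kept. Those lost included 4 of the 5 for genotype in treated females and all 5 for genotype in treated males, where Sox4 gave 0.96 (adjusted p = 0.57) and Ly6d -4.50 (adjusted p = 0.26), and the count of genes called fell to 43 and 208 of 19290 there. For treatment in dKO females the count fell from 7288 to 2402. It fell from 1881 to 1256 for Foxa loss in untreated females and from 3315 to 2585 for treatment in WT females. Over all alternatives run, the adjusted p from limma for treatment in dKO females reached 0.14 for Golm1, 0.21 for Cd44, 0.35 for Tff3 and 0.076 for Sox4. It reached 0.015 for Ly6d and 0.0067 for Fam83a, which were called in every run. Sox4 in treated females and the Sox4, Spink1 and Cd44 calls in untreated females were kept with array position. In the authors' deposited table the 9 members have 63 signed fold changes for the same 7 comparisons, and all 34 called values have the same sign there, with differences of up to 0.47 on the log2 scale. Promoter sequences of 5 members were at hand from RefSeq (GRCm38.p6), 250 bases before to 50 after the start, and none held on either strand the forkhead letters TGTTTAC (in 3.65% of 32851 promoters of that length), TATTTAC (in 3.04%) or TGTTTGC (in 5.07%), while 11.2% of promoters held at least 1 of these; this says only that these letters are not in this window.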

How the data were processed

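Labelled RNA from 24 mouse liver samples, 4 in each of 6 groups, was read on single-colour (Cy3) arrays of 4 to a slide. The deposited intensity values are background-subtracted and detrended signals of 1 array each, made with Feature Extraction 10.5.1.1 per the file headers (9.53 per the submitters' processing notes), with no scaling between arrays. The authors' deposited table holds signed fold changes, treated here as a score, and was used only to compare signs and sizes; the sources used here do not state their normalization. From the intensities, log2 of the signal minus the array's 75th percentile over 43379 non-control spots was computed, spots marked as outliers were left out, spots of 1 probe were averaged, and no spot was saturated. The filter kept 28051 of 41174 probes, those marked well above background by the scanner software on 4 or more of the 24 arrays, and each of 19290 genes was represented by its brightest probe. One limma model (3.58.1, R 4.3.3) with 6 group means was fitted to the 24 arrays, with Benjamini-Hochberg adjustment over all genes and calls at 0.05, and was tested on simulated data. Tables and figures used Python 3.11.15, pandas 2.3.3, numpy 2.4.6 and matplotlib 3.10.9.

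Probe positions are on mm9, per the file headers. Named are all 9 members, the 3 genes most alike to each (1 of them is not reported here), and, from each of 5 related lists, called genes up to 4 per comparison by size, with Foxa1 and Foxa2 as the check of the labels. The members and lists were chosen with earlier results of these data known. Alternatives covered background, scaling, dim-probe filters, probe averaging, slide and replicate blocks, outlier spots, the groups fitted, and leaving out each array; array position as a covariate was added after seeing the data. Depth is limited by signal over background and the number of arrays.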

Additional observations from a re-analysis of the deposited data

Results flagged for a closer look

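The effect of Foxa loss differed between treated males and treated females for 5 of the 9 markers, by the test of the difference itself (male minus female effect, log2, limma, adjusted over 19290 genes), against 12.6% of all genes tested in either direction and 5.25% lower. The difference was -7.04 for Ly6d (adjusted p = 0.0011), -6.88 for Fam83a (adjusted p = 0.0007), -3.77 for Spink1 (adjusted p = 0.032), -2.51 for Golm1 (adjusted p = 0.0069) and -2.30 for Sox4 (adjusted p = 0.0017). For Ly6d and Fam83a the called effects had opposite signs in the 2 sexes, for Sox4 both were above 0, and for Golm1 and Spink1 the female effect alone was called. The call of the difference held in 24 of 35 alternative runs for Spink1, and in all of them for Ly6d, Fam83a, Golm1 and Sox4. The median over all genes of the same difference was 0.11.

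Prom1 had 1 array far from the other 3 in treated female WT livers, replicate 3 at -0.47, with the nearest at 0.27 (gap over range 0.84, above Dixon's 95% critical value for 4 samples). It was the 1 array flagged over 54 groups of member values, and chance alone flags about 1 in 20 groups.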

How the results depend on the processing

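No member call changed direction under any alternative run, and of the 39 member calls quantile normalization, median centring, slide as a random block and outlier spots kept each kept 39, no filter on dim probes and the mean of a gene's probes 38, normexp, slide as a fixed block and the fit of only the groups compared 32 each, and array position 25. A filter on all 24 arrays left 17 of them measured and kept 17. Replicate numbers did not pair the samples (correlations of deviations -0.35 to 0.34), and with the replicate block 39 of 39 calls were kept, with 1620 genes called for Foxa loss in untreated females against 1881 without it.

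Counts of genes called moved over 1.5 times as follows. For Foxa loss in treated males (4872) they were 2572 with normexp and 208 with array position; in treated females (5736) 2098 with only the groups compared and 43 with array position; in untreated females (1881) 733 with normexp, 1195 with slide as a fixed block, 2828 with only the groups compared, and 1137 to 2617 with 1 array left out, lowest without untreated dKO replicate 4 and at 1190 without untreated WT replicate 1. For treatment they were, in dKO females (7288), 4348 with only the groups compared and 2402 with array position, and in WT females (3315) 1888 with normexp and 1968 to 4105 with 1 array left out, lowest without treated WT replicate 3. For sex they were, in dKO (3950), 2268 with normexp, 1138 with only the groups compared and 2338 to 6079 with 1 array left out (2377, 6079 and 2338 without treated female dKO replicates 2, 3 and 4), and in WT (1179) 516 with normexp and 706 to 1889 with 1 array left out (706 without treated male WT replicate 4, 735 and 726 without treated female WT replicates 1 and 4, and 1889 without treated female dKO replicate 2). For genotype by treatment (980) they were 414 with normexp, 563 with no filter, 1490 with slide as a fixed block, 474 with only the groups compared, 4 with array position and 470 to 2421 with 1 array left out (470 and 2421 without treated female dKO replicates 4 and 3). For sex by genotype (2424) they were 1321 with normexp, 1585 with no filter, 1420 with only the groups compared and 1502 to 4475 with 1 array left out (without treated female dKO replicates 4 and 3). The cause was not tested, beyond the fewer samples in some fits.

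Values that were not called changed sign as follows: with normexp Tff3 for loss in untreated females (-0.089) and Cd44 for sex in dKO (-0.040); with median centring Golm1 for treatment in WT (-0.032) and Cd44 for sex in dKO (-0.040); with quantile normalization Cd44 for sex in dKO (-0.035) and with the mean of probes Cd44 for sex in dKO (-0.0070); with slide as a fixed block Golm1 for treatment in WT (-0.15), Cd44 for sex in WT (-0.21) and Cd44 for sex by genotype (0.43, and 0.022 with slide as a random block); with array position Gpc3 (-0.11) and Prom1 (-0.11) for treatment in dKO, Prom1 for sex in WT (0.035) and Sox4 for genotype by treatment (-0.034). Of the related genes, normexp turned the called Gpc2 for loss in treated males (-0.061) and for treatment in dKO (-0.024), Has1 for loss in treated males (-0.11) and Fam83d for loss in treated females (-0.37), none called there. With 1 array left out, ranges that crossed 0 were, for Foxa loss, Fam83a untreated -0.44 to 0.25 and Gpc3 in treated females -0.93 to 0.0031; for treatment, Golm1 in WT -0.16 to 0.23, Gpc3 in dKO -0.20 to 0.74 and Spink1 in dKO -0.48 to 0.93; for sex, Prom1 -0.43 to 0.044, Cd44 -0.42 to 0.53 and Spink1 -0.0052 to 0.93 in WT and Cd44 -0.22 to 0.17 in dKO; for genotype by treatment, Gpc3 -0.61 to 0.33 and Sox4 -0.014 to 0.46; and for sex by genotype, Cd44 -0.52 to 0.43. Scaling moved the median of all genes to -0.23 with normexp for loss in treated females and to -0.27 with no filter for treatment in dKO. Signal over background limits Tff3 and Fam83a in untreated livers, where the representative probe of each was not well above it.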
